A study of Homo sapiens with 6 samples.

Results

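The genes described here are named as proteins of the mitochondrial ribosome, and the place of each in it was not examined. They were taken by name, as every gene whose symbol is MRPL or MRPS followed by a number and, for some, a letter from A to C. This gave 78 of the 33451 genes in the table of counts, 49 named MRPL and 29 named MRPS. The rule uses only the names. All 78 passed the low-count filter, so that 78 of the 18183 genes tested belong to this set. Pseudogenes of the family, whose names end differently, were left out.

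Messenger RNA was sequenced from MDA-MB-453, an established human breast cancer cell line, after 5 days of culture. The experimental group (EG) received 100 nM 25(OH)D, the circulating form of vitamin D, and the control group (CG) received only the solvent, 0.1% alcohol. Each group held 3 libraries, described in the methods of the study as biological replicates of a single cell line. The question addressed by the pair of groups is which transcripts differ after culture with 25(OH)D.

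The mitochondrial ribosome, or mitoribosome, translates the few proteins encoded by the mitochondrial genome, all of them parts of the respiratory chain and ATP synthase. Its ribosomal RNAs are transcribed inside the mitochondrion, whereas its proteins are encoded in the nucleus, made in the cytosol and imported. The large (MRPL) subunit forms the peptide bond and the small (MRPS) subunit reads the messenger. The genes are expressed in nearly every tissue, since nearly every cell holds mitochondria.

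The libraries held between 33268860 and 40928176 counts, and levels are given in CPM, counts scaled to a common library size by the TMM method, in which 3 counts came to 0.0720 to 0.0921 CPM. No library repeated another, since counts within each group varied beyond counting error, and all 6 entered the comparison. Of the markers of the cell line, FOXA1, ERBB2, FGFR4, KRT8, KRT18 and EPCAM had group means between 84.6 and 1845 CPM. Of the 11 markers of other cell types, 10 were listed in the table, 9 of them below 1 CPM, among them PTPRC of leukocytes, CD3E of T cells and PECAM1 of endothelium. The exception was the collagen gene COL1A1, at 37.5 CPM in CG and 33.1 CPM in EG. The summed level of the list ranged from 37.1 to 39.4 CPM in CG and from 33.8 to 35.6 CPM in EG, and its part in the differences below was not tested.

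After culture with 25(OH)D, most of these transcripts lay within a 1.5-fold range of their control level. Of the 78 genes, 13 fell, 5 rose and 60 did not pass the test (edgeR quasi-likelihood test, Benjamini-Hochberg adjusted p under 0.05). The 13 that fell make up 16.7% of the set, beside 16.5% of all genes tested that fell. The 5 that rose make up 6.41%, beside 17.3% of all genes tested. The median log2 fold change of EG against CG was -0.059 over the 78 genes, with quartiles of -0.16 and 0.03, and -0.01 over all genes tested, with quartiles of -0.23 and 0.22. The quartiles of the set lay closer together than those of all genes tested, and the values of the set ran from -0.48 to 0.36. The filter admits genes near its minimum count of 10, whereas the lowest mean count of a member was 125. Spread was not compared at matched levels. These are relative levels in bulk RNA, in which fewer cells with a transcript and less of it in each cell cannot be told apart.

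**Figure D1:**
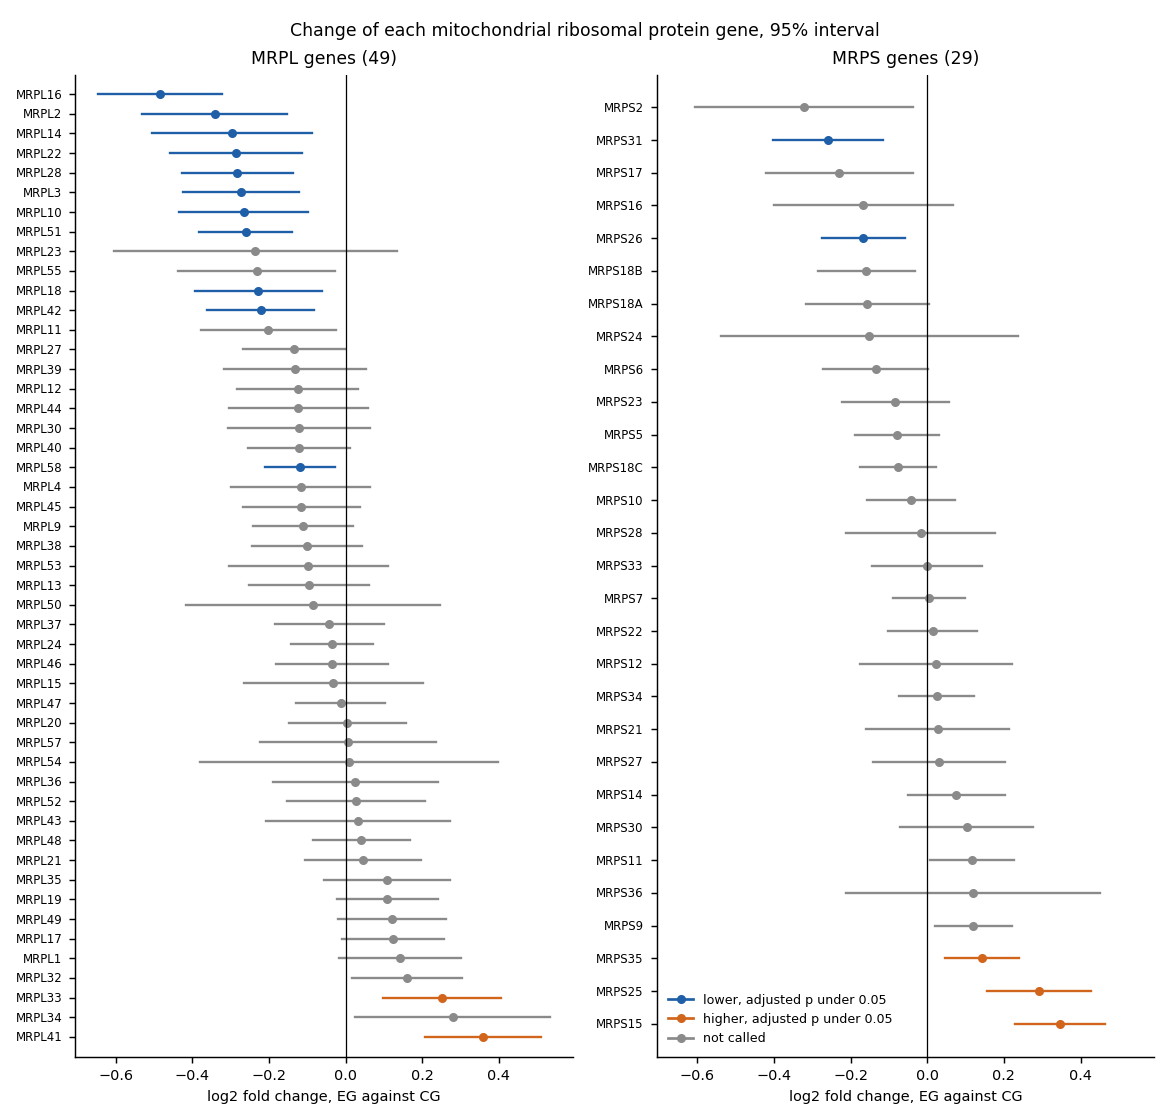
Log2 fold change of EG against CG (x axis) for each of the 49 MRPL genes (left) and 29 MRPS genes (right), with the point as the estimate and the line as its 95% interval from the quasi-likelihood fit. The 13 genes that fell are blue, the 5 that rose are orange and the other 60 are grey; the largest fall was MRPL16 at -0.48 and the largest rise MRPL41 at 0.36.

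No gene of the set reached the limits used in the study, a log2 fold change beyond 1 in either direction with an unadjusted p under 0.05, which 2.63% of all genes tested passed as lower and 4.02% as higher. At an unadjusted p under 0.05 alone, 28 of the 78 differed in edgeR, 19 lower (24.4%, beside 20.9% of all genes tested) and 9 higher (11.5%, beside 21.3%). DESeq2 with its own adjusted p called 9 lower (11.5%, beside 12.6% of all genes) and 5 higher (6.41%, beside 14.3%). The 95% intervals also bound what was not called. In 58 of the 60 genes that did not pass the test, and in 75 of all 78, the interval lay inside a 1.5-fold change either way. The half-width of the interval ranged from 0.0918 to 0.388 on the log2 scale, with a median of 0.153. Only 12 genes had an estimate beyond 1.2-fold.

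The counts of calls moved with the scaling and with single libraries. With upper-quartile factors 20 genes fell and 4 rose, and with library sizes alone 21 fell and 4 rose; the shares over all genes tested were then 19.9% lower and 14.9% higher, and 20.2% lower and 14.8% higher. Without EG library 2, 6 genes fell (7.69%, beside 12.8% of all genes), without CG library 3, 8 fell (10.3%, beside 13.8%), and without EG library 3, 9 rose (11.5%, beside 16.2%). With limma on log2(RPKM + 1), 11 genes fell (14.1%) and 1 rose, MRPS15 (1.28%), and with 0.1 added 12 fell (15.4%) and again 1 rose. Over all 33451 genes, fitted there without a low-count filter, 7.25% and 7.30% fell and 5.97% and 5.93% rose. Leaving out each library in turn, 8 genes kept the call in every fit, MRPL16, MRPL2, MRPL28, MRPL51 and MRPS31 as lower and MRPL41, MRPS15 and MRPS25 as higher. The other 10 lost it in at least 1 fit. The 18 called genes kept their direction in each of the 15 alternative fits across all genes.

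The 3 values of a gene did not overlap between the groups, with EG lower, in 21 of the 78 genes (26.9%), and with EG higher in 8 (10.3%). Over all genes tested these shares were 22.9% and 22.8%. All 18 called genes were among those without overlap.

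The 2 largest falls, in MRPL16 and MRPL2, and a smaller one in MRPL3 were in large-subunit proteins whose bacterial counterparts lie close to the catalytic centre. No list of the proteins of this region was made, so falls and rises within it were not counted. The counterpart of MRPL16 lies beside the bound transfer RNAs. Its level was 45.7, 46.8 and 43.4 CPM in the CG libraries and 33.0, 35.6 and 28.5 CPM in the EG libraries. All 3 EG values were below all 3 CG values. MRPL16 fell by 28.5% (45.3 ± 1.74 against 32.3 ± 3.58 CPM, SD, n = 3 each). The log2 fold change was -0.48 with a standard error of 0.0755 and an edgeR adjusted p of 0.000167. The gene lies on chromosome 11 at 59806135 to 59810872, on the minus strand of GRCh38, with 2271 exon bases, none of them shared with another gene.

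MRPL2, whose counterpart helps to form the peptidyl transferase centre, was at 12.5, 12.5 and 12.8 CPM in CG and at 9.81, 10.6 and 9.45 CPM in EG. It fell by 21.1%, with a log2 fold change of -0.34 (SE 0.0880, edgeR adjusted p 0.00766). MRPL2 lies on chromosome 6 at 43054029 to 43059806, and 373 of its 2539 exon bases are also exon of KLC4 on the opposite strand. MRPL3, whose bacterial counterpart lies in the same region of the ribosome, was at 41.1, 45.5 and 41.6 CPM in CG and at 32.9, 34.6 and 38.7 CPM in EG. Its highest EG value was closer to the lowest CG value than in MRPL16. MRPL3 fell by 17.2%, with a log2 fold change of -0.27 (SE 0.0702, edgeR adjusted p 0.00760), and the call was lost without CG library 2 (edgeR adjusted p 0.0565).

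MRPL14 lies at the face of the large subunit that meets the small one. It was at 15.9, 14.6 and 17.4 CPM in CG and at 14.5, 12.5 and 11.9 CPM in EG, so that the groups were separated only by the gap between 14.6 and 14.5 CPM. The log2 fold change was -0.30 (SE 0.0973, edgeR adjusted p 0.0299), and the call was lost when CG library 1 or 3 or EG library 2 or 3 was left out (highest edgeR adjusted p 0.135). MRPL28, which has a bacterial counterpart, was at 40.9, 39.8 and 42.8 CPM in CG and at 36.0, 30.8 and 34.7 CPM in EG. It fell by 17.8%, with a log2 fold change of -0.28 (SE 0.0673, edgeR adjusted p 0.00459).

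Of the proteins placed by region in the large subunit, 3 fell, 1 in each region. MRPL22 lines the tunnel through which the new peptide leaves, and it was at 16.0, 15.7 and 17.4 CPM in CG and at 13.6, 13.0 and 13.7 CPM in EG (log2 fold change -0.29, SE 0.0799, edgeR adjusted p 0.0125). MRPL10 forms the base of the stalk that recruits translation factors, and it was at 14.9, 15.8 and 15.1 CPM in CG and at 12.9, 12.6 and 12.6 CPM in EG (log2 fold change -0.27, SE 0.0781, edgeR adjusted p 0.0167). MRPL18 belongs to the central protuberance, and it was at 33.1, 29.2 and 30.3 CPM in CG and at 28.7, 26.3 and 24.1 CPM in EG (log2 fold change -0.23, SE 0.0770, edgeR adjusted p 0.0346). In each of these genes the groups did not overlap, with the smallest gap in MRPL18. The call was lost for MRPL22 without CG library 3 or EG library 2 (highest edgeR adjusted p 0.0636), for MRPL10 without CG library 2 or EG library 2 (0.0729), and for MRPL18 without CG library 1 or 3 or EG library 2 or 3 (0.159). In the stalk, 1 of 5 genes fell, at the polypeptide exit 1 of 8 and in the central protuberance 1 of 6, and none rose. Over all genes tested, 16.5% fell and 17.3% rose. The medians of these regions were -0.12, -0.12 and -0.07 on the log2 scale.

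The genes that fell also held proteins without a counterpart in the bacterial ribosome. MRPL51, of the large subunit, was at 68.6, 75.2 and 75.3 CPM in CG and at 62.4, 57.5 and 63.0 CPM in EG. It fell by 16.5%, with a log2 fold change of -0.26 (SE 0.0564, edgeR adjusted p 0.00233), and 486 of its 1551 exon bases are exon of NCAPD2 on the opposite strand. MRPS31, of the small subunit, was at 36.8, 35.3 and 33.0 CPM in CG and at 29.9, 30.4 and 27.5 CPM in EG. It also fell by 16.5%, with a log2 fold change of -0.26 (SE 0.0666, edgeR adjusted p 0.00743). The smaller falls were in MRPL42 (-0.22, edgeR adjusted p 0.0161, named after its values were seen), MRPS26 (-0.17) and MRPL58 (-0.12). The call was lost for MRPL42 without CG library 2 or EG library 2 or 3 (highest edgeR adjusted p 0.0784), for MRPS26 without CG library 1 or 3 or EG library 2 or 3 (0.0934), and for MRPL58 with any 1 of the 6 libraries left out (0.206). MRPS31 has expressed pseudogenes, of which MRPS31P5 (log2 fold change -0.21, edgeR adjusted p 0.0956) and MRPS31P4 (-0.06, adjusted p 0.641) passed the low-count filter without being called, and reads may be split between them.

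**Figure D2:**
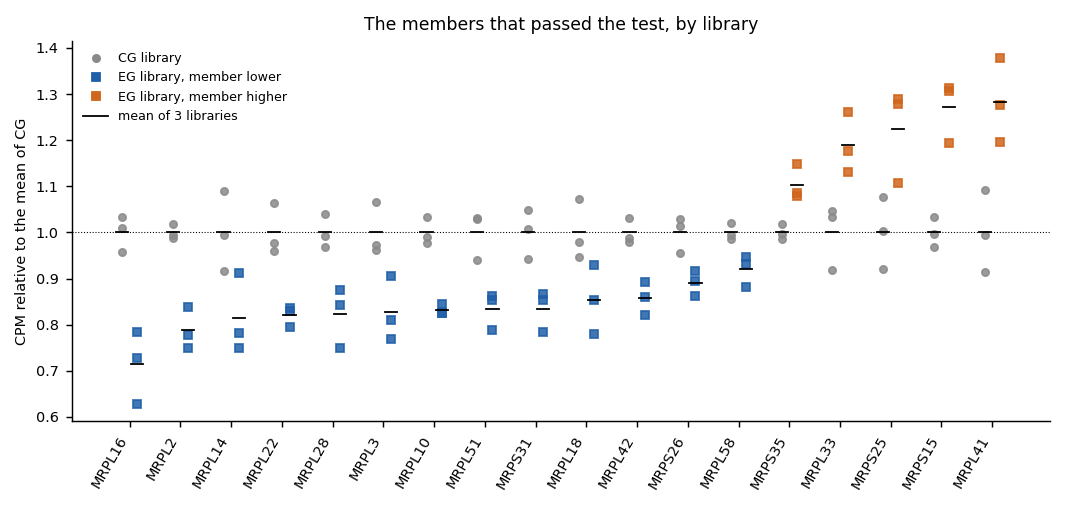
CPM of the 18 genes that passed the test in each library, divided by the mean of the 3 CG libraries of that gene (y axis), with genes ordered along the x axis by their fold change. Grey circles are CG libraries, squares are EG libraries and dashes are means of 3 libraries; the EG squares of the 13 genes that fell lie below the CG circles of the same gene, and those of the 5 that rose lie above them.

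Of the genes that rose, MRPL41 had the largest change. It encodes a large-subunit protein without a bacterial counterpart. MRPL41 was at 52.7, 48.1 and 44.1 CPM in CG and at 57.8, 61.7 and 66.6 CPM in EG. It rose by 28.3% (48.3 ± 4.31 against 62.0 ± 4.42 CPM, SD, n = 3 each). The log2 fold change was 0.36 (SE 0.0706, edgeR adjusted p 0.00115). MRPL41 lies on chromosome 9 at 137551199 to 137552555, on the plus strand, and shares no exon bases.

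MRPS15, the counterpart of a bacterial protein that binds the small ribosomal RNA early in assembly, was at 54.6, 53.1 and 56.7 CPM in CG and at 71.6, 71.9 and 65.5 CPM in EG. It rose by 27.2%, with a log2 fold change of 0.35 (SE 0.0545, edgeR adjusted p 0.000182), the only one of the 5 that also passed with limma on either RPKM scale. MRPS15 lies on chromosome 1 at 36455718 to 36464437, on the minus strand. MRPS25, a small-subunit protein without a bacterial counterpart, was at 219, 204 and 187 CPM in CG and at 262, 260 and 225 CPM in EG. It rose by 22.5%, with a log2 fold change of 0.29 (SE 0.0629, edgeR adjusted p 0.00226), and 1197 of its 5383 exon bases are exon of NR2C2 on the opposite strand.

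MRPL33, a large-subunit protein with a bacterial counterpart, was at 24.8, 27.9 and 28.3 CPM in CG and at 31.8, 34.0 and 30.6 CPM in EG. It rose by 19.1%, with a log2 fold change of 0.25 (SE 0.0713, edgeR adjusted p 0.0137). BRE holds 324 of its 1539 exon bases on the same strand, and 14.4% of the 100-base windows of its transcripts occur in another gene, so that its counts are less certain. The call was lost without CG library 1 or EG library 2 (highest edgeR adjusted p 0.0685). MRPS35, on the decoding side of the small subunit, was at 89.9, 88.9 and 91.8 CPM in CG and at 104, 97.2 and 97.9 CPM in EG. It rose by 10.4%, with a log2 fold change of 0.14 (SE 0.0450, edgeR adjusted p 0.0247), and it was not called with upper-quartile factors, with library sizes alone, or without CG library 1, CG library 2 or EG library 1 (highest edgeR adjusted p 0.0971). Of the 6 genes of the decoding side, 1 rose and none fell, beside 17.3% and 16.5% of all genes tested. The median of the 6 was 0.02.

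The promoters of the 2 largest falls and the 2 largest rises that have an entry are shown because these members moved in opposite directions. Each is the 250 bases before the gene start in RefSeq (GRCh38.p14), 5′ to 3′ on the strand of the gene, and capitals mark matches to the motifs searched. The RefSeq starts of these 4 genes lie inside the spans listed in the table of counts. MRPL2 had no entry. The windows are chr11:59810779-59811028 on the minus strand for MRPL16, chr6:44127309-44127558 on the minus strand for MRPL14, chr9:137551629-137551878 on the plus strand for MRPL41 and chr1:36464385-36464634 on the minus strand for MRPS15.
MRPL16: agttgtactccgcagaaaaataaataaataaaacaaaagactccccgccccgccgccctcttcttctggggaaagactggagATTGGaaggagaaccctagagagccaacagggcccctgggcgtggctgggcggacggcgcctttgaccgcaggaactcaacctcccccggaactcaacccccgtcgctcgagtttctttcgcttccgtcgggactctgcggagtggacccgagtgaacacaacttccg
MRPL14: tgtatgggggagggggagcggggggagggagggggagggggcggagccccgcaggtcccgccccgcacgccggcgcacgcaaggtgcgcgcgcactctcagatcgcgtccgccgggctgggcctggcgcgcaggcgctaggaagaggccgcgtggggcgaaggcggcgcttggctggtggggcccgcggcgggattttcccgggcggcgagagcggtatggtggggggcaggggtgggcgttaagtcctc
MRPL41: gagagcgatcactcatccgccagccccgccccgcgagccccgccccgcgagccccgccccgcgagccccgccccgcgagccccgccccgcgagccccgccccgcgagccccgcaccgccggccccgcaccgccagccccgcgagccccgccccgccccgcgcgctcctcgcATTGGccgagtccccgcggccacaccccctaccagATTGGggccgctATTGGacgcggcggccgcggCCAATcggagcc
MRPS15: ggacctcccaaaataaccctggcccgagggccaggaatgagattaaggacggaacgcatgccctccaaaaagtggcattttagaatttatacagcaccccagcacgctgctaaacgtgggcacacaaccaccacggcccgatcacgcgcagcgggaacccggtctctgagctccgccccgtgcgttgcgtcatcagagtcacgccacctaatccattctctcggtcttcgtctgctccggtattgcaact

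The motifs were GCGCATG (the core of the NRF1 site), CCGGAAG (the ETS core, which GABP binds), AAGATGG (the YY1 core), CACGTG (the E-box of MYC and its partners), CCAAT (the CCAAT box) and AGGTCA repeated after 3 bases (the direct repeat of the vitamin D receptor), on both strands; none of them contains another. The capitals above are CCAAT boxes, 1 in MRPL16 and 4 in MRPL41, and no motif matched in MRPL14 or MRPS15. Of the 78 genes, 69 had an entry among 27305 promoters. The ETS core was in 23 of the 69 (33.3%) and in 8.82% of all promoters. The NRF1 core was in 10.1% against 3.96%, the YY1 core in 10.1% against 3.77%, the E-box in 8.70% against 6.49%, and the CCAAT box in 27.5% against 33.0%. The direct repeat of the vitamin D receptor was in none of the 69 and in 2 of all promoters. Among the genes that fell, 5 of the 11 with an entry held the ETS core, among those that rose 1 of 5, and among the rest 17 of 53. In the same order, the NRF1 core was in 1, 0 and 6 genes, and the YY1 core in 0, 0 and 7. The E-box was in 1, 0 and 5, and the CCAAT box in 2, 1 and 16. A match is a description of the sequence in this window, and binding was not measured.

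By subunit, 11 of the 49 MRPL genes fell and 2 rose, and 2 of the 29 MRPS genes fell and 3 rose. Over all genes tested, 16.5% fell and 17.3% rose, which also stands beside the other counts of this paragraph. The median log2 fold change was -0.10 over the MRPL genes and -0.00095 over the MRPS genes, and 65.3% and 51.7% of them, respectively, were below 0. The difference between the MRPL and MRPS counts was not tested. Structures of the mitoribosome place MRPS18A and MRPS30 in the large subunit despite their names, and moving them there gave 11 falls and 2 rises among 51 genes and 2 falls and 3 rises among 27. Proteins with a bacterial counterpart (46 genes) gave 8 falls and 2 rises with a median of -0.09, and those without one (32 genes) gave 5 falls and 3 rises with a median of -0.03.

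**Figure D3:**
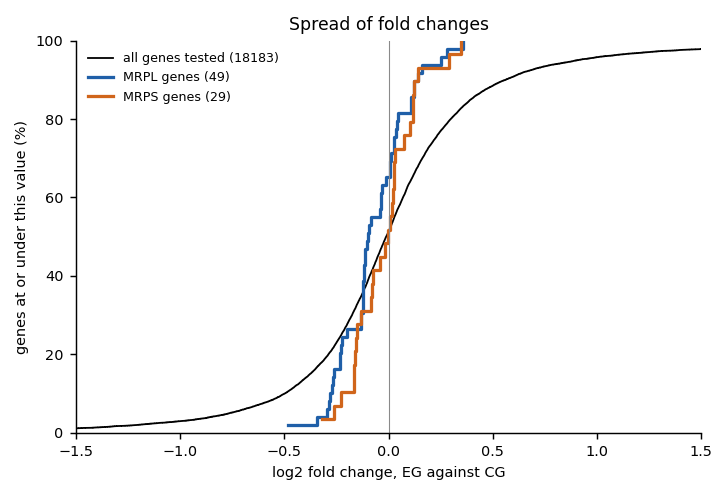
Share of genes in percent (y axis) at or under each log2 fold change of EG against CG (x axis), for the 49 MRPL genes, the 29 MRPS genes and all 18183 genes tested. Both lines of the set climb within a narrower range than the line of all genes, which was not matched to the set by level. The MRPL line crosses its middle at -0.10 and the MRPS line close to 0.

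The summed level per length of the MRPL genes was 822, 812 and 816 RPKM in the CG libraries and 763, 769 and 742 RPKM in the EG libraries, without overlap. For the MRPS genes it was 770, 741 and 756 RPKM in CG and 752, 750 and 717 RPKM in EG, and the groups overlapped. RPKM divides by the total count of a library. The 37 RNAs of the mitochondrial genome took between 7.85% and 7.99% of that total in CG and between 8.89% and 9.24% in EG. After TMM scaling, the summed CPM of all 78 genes ranged from 3457 to 3523 in CG and from 3396 to 3523 in EG, and the groups overlapped. The MRPL sum was still apart, from 1656 to 1680 CPM in CG and from 1575 to 1617 CPM in EG. The MRPS sum overlapped, from 1801 to 1843 CPM in CG and from 1821 to 1906 CPM in EG, and its mean was higher in EG (1827 ± 22.9 against 1871 ± 44.4 CPM, SD, n = 3 each), whereas in RPKM it was lower in EG (756 ± 14.8 against 740 ± 19.8). Their share of raw counts ranged from 0.352% to 0.357% in CG and from 0.333% to 0.347% in EG.

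The ratio of the 2 sums does not depend on the total. It was 1.07, 1.10 and 1.08 in CG (1.08 ± 0.0147, SD, n = 3) and 1.01, 1.02 and 1.03 in EG (1.02 ± 0.00974, SD, n = 3). The ratio was lower in all 3 EG libraries than in any CG library, and with 3 libraries against 3 a two-sided exact permutation test cannot give a p under 0.1. This ratio was chosen after the values were seen. The difference of -0.0563 became -0.0539 without MRPS34 and MRPL58, the 2 most abundant members, and -0.0687 with MRPS18A and MRPS30 counted in the large subunit. Without the 18 called genes it was -0.0163. Those genes were picked by their difference in these libraries, so this value cannot show whether the shift is spread over the set. For the ratio of median levels, in which the groups overlapped, the difference was -0.0516.

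**Figure D4:**
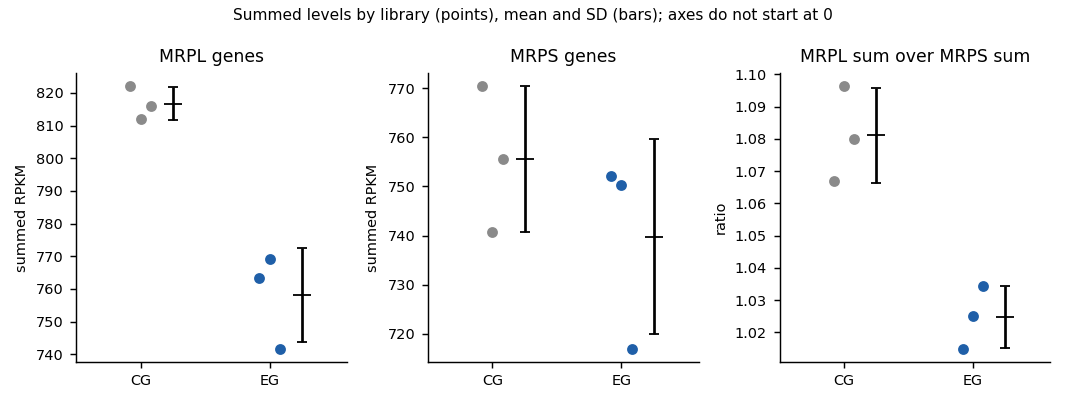
Summed RPKM of the MRPL genes (left), summed RPKM of the MRPS genes (middle) and the ratio of the 2 sums (right) in each library, with dashes for the mean and bars for the SD of 3 libraries; the y axes do not start at 0. The CG and EG points are apart for the MRPL sum (812 to 822 against 742 to 769 RPKM) and for the ratio, and they overlap for the MRPS sum.

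Levels differed far more between members than between groups. The mean RPKM over the 6 libraries ran from 1.26 to 212, a 169-fold range, with a median of 12.5, and the lowest count of any member in a library was 84. MRPS34, a small-subunit protein found in mitochondria and not in bacteria, stood highest, at 225, 206 and 210 RPKM in CG and 217, 216 and 199 RPKM in EG. Its log2 fold change was 0.02 with a 95% interval from -0.07 to 0.12 and an edgeR adjusted p of 0.724, and its sign turned with upper-quartile factors, with library sizes alone and with limma. MRPL58, a release factor that became part of the large subunit, was next, at 129, 127 and 131 RPKM in CG and 118, 118 and 110 RPKM in EG. MRPL58 fell with an edgeR adjusted p of 0.0443, the called member nearest to the threshold. MRPS26, of the small subunit, followed at 67.2, 62.4 and 65.7 RPKM in CG and 57.6, 57.0 and 54.2 RPKM in EG, and fell with an edgeR adjusted p of 0.0201.

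**Figure D5:**
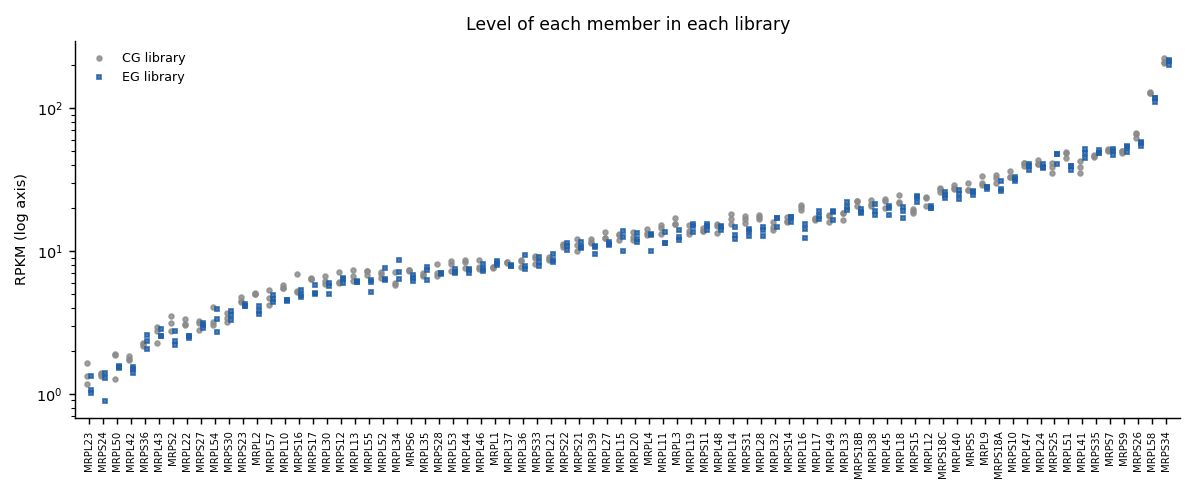
RPKM on a log axis (y axis) of each of the 78 members (x axis, ordered by mean level), with a grey circle for each CG library and a blue square for each EG library. The members run from 1.26 to 212 RPKM on average, and the 6 points of a member lie close together beside that range.

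The lowest levels per length were those of MRPL23 at the polypeptide exit (1.26 RPKM), MRPS24 of the small subunit (1.29 RPKM) and MRPL50 of the large subunit (1.61 RPKM). MRPL23 was at 4.78, 3.41 and 3.94 CPM in CG and at 3.24, 3.98 and 3.07 CPM in EG, with a log2 fold change of -0.24 and an interval from -0.60 to 0.13. The groups overlapped in MRPL23 and in the other two. MRPS24 had a log2 fold change of -0.15 (interval from -0.54 to 0.24), which became 0.02 without EG library 1, and 606 of its 2613 exon bases belong also to the read-through gene URGCP-MRPS24. MRPL50 had a value of -0.08 (interval from -0.42 to 0.25), with 258, 234 and 154 counts in CG, and its sign turned when CG library 1 or 2 was left out. In the 26 members lowest by RPKM, 4 fell and none rose, and in the middle 26, 5 fell and none rose. The highest 26 held 4 falls and 5 rises, and the shares over all genes tested were 16.5% lower and 17.3% higher. The rank of the members by RPKM was nearly the same in both groups (Spearman rho 0.990 across members), whereas the log2 fold change had a rho of 0.161 with the RPKM level and of 0.119 with the exon length. These correlations are across 78 genes of the same libraries, which are not independent replicates.

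The 3 MRPS18 genes encode variants of a single bacterial protein, of which MRPS18A sits in the large subunit. MRPS18A was at 41.1, 37.9 and 43.6 CPM in CG and at 34.5, 35.0 and 40.6 CPM in EG (log2 fold change -0.16, edgeR adjusted p 0.127). MRPS18B was at 38.6, 41.4 and 41.8 CPM in CG and at 37.7, 35.7 and 35.7 CPM in EG (log2 fold change -0.16, edgeR adjusted p 0.0529). MRPS18C was at 125, 129 and 133 CPM in CG and at 128, 122 and 117 CPM in EG (log2 fold change -0.08, edgeR adjusted p 0.227). None of the 3 passed the test, and only MRPS18B had groups without overlap. MRPS18B was also the uncalled member nearest to the threshold.

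Exons shared with other genes touched many members. Of the 78, 39 share exon bases with another gene, 15 on the same strand and 28 on the opposite one. The study names a stranded kit for its libraries, whereas whether the counting used strand is not stated. In 12 members at least 5% of the 100-base windows occur in a transcript of another gene. Among the 39 members that share no exon bases, 10 fell and 3 rose, with a median of -0.04. Among the 15 that share bases on the same strand, 1 fell and 1 rose, with a median of -0.11. Beside these counts stand 16.5% lower and 17.3% higher over all genes tested.

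The other genes of the mitoribosome and its supply were read from lists of their own. The counts of these lists stand beside shares over all genes tested of 16.5% lower and 17.3% higher. Of 5 mitoribosome proteins under other names, 1 fell, GADD45GIP1 (log2 fold change -0.14, edgeR adjusted p 0.0420), and none rose; its call was lost in most alternatives, among them DESeq2 (adjusted p 0.0612). Of 28 assembly and rRNA maturation genes, 27 were found in the table and tested, of which 7 fell and none rose, with a median of -0.15. Of the 27, 12 fell with upper-quartile factors, 13 with library sizes alone and 4 without CG library 1. Over all genes, the shares lower in those fits were 19.9%, 20.2% and 13.5%. The first by p was MTERF4, which brings a methyltransferase to the large subunit, with 63.9 ± 1.87 CPM in CG and 48.6 ± 2.39 CPM in EG (SD, n = 3 each). Its log2 fold change was -0.40 (edgeR adjusted p 5.65e-05).

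Of 16 translation factors, 4 fell (MTIF2, GFM2, C12orf65 and TACO1) and 1 rose. The initiation factor MTIF2 fell by 20.7% (115 ± 0.644 against 91.3 ± 2.04 CPM, edgeR adjusted p 2.24e-05), and the release factor MTRF1L rose by 17.4% (59.9 ± 0.566 against 70.3 ± 2.23 CPM, edgeR adjusted p 0.00186). Of 20 mitochondrial aminoacyl-tRNA synthetases and related enzymes, 2 fell, TARS2 at -0.18 (edgeR adjusted p 0.0337) and GATB at -0.23 (edgeR adjusted p 0.0409), none rose, and DESeq2 called neither. Of 6 genes of mitochondrial transcription, 2 fell (TFAM and POLRMT) and 1 rose. TFAM, which packages the mitochondrial genome and starts its transcription, was at 81.7, 80.1 and 80.1 CPM in CG and at 65.2, 62.0 and 55.0 CPM in EG, and fell by 24.6% (edgeR adjusted p 9.61e-05). MTERF2, which binds mitochondrial DNA, rose by 18.1% (edgeR adjusted p 0.00698).

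Of 10 regulators of nuclear genes of mitochondria, 3 fell and 2 rose. MYC, a transcription factor of growth genes, was at 29.3, 27.5 and 29.4 CPM in CG and at 12.7, 11.0 and 10.1 CPM in EG. It fell by 60.8%, with a log2 fold change of -1.35 (SE 0.0870, edgeR adjusted p 2.30e-08). ESRRA, a nuclear receptor that controls respiratory genes, was at 24.4, 26.8 and 26.6 CPM in CG and at 36.4, 35.5 and 45.1 CPM in EG, and rose by 50.3% (edgeR adjusted p 0.000108). Both log2 fold changes were larger in size than those of any MRPL or MRPS gene. The other called regulators, named after their values were seen, were YY1 (-0.23, edgeR adjusted p 0.00274) and the coactivator PPARGC1A (-0.87, from 3.52 to 1.93 CPM, edgeR adjusted p 0.00322), which fell, and the coactivator PPARGC1B (0.28, edgeR adjusted p 0.0147), which rose. Of the other factors whose motifs were searched, NRF1 (-0.02, edgeR adjusted p 0.918) and the GABP subunit GABPA (0.09, edgeR adjusted p 0.137) did not pass the test.

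The list held 15 of the 37 RNAs of the mitochondrial genome, the ribosomal and messenger RNAs without the transfer RNAs. None of the 15 fell and 14 rose, beside 16.5% and 17.3% of all genes tested. Their median log2 fold change was 0.21, beside -0.10 for the MRPL genes, and limma on the log2 RPKM scale called 2 of them. Over all genes, limma called 7.25% lower and 5.97% higher with 1 added, and 7.30% and 5.93% with 0.1 added. MT-RNR2, the ribosomal RNA of the large subunit, was at 4694, 5553 and 5765 CPM in CG and at 7914, 7689 and 8814 CPM in EG, a rise of 52.5% (log2 fold change 0.61, edgeR adjusted p 4.26e-06). The other ribosomal RNA, MT-RNR1, was at 135 CPM in CG and 131 CPM in EG on average (log2 fold change -0.04, edgeR adjusted p 0.852). The libraries were made from selected mRNA, so that both ribosomal RNAs were measured after that selection. When the genes of the mitochondrial genome were left out of the fit, 12 members fell (15.4%) and 6 rose (7.69%). Over all genes of that fit, 15.6% fell and 17.9% rose, and the median of the members was -0.047.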

How the data were processed

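The mRNA of MDA-MB-453 cells was sequenced as 3 libraries after culture with 25(OH)D and 3 after culture with solvent, and groups and replicates were read from the sample labels. The authors deposited counts, which are whole numbers of reads assigned to each gene and not normalized, and RPKM values, which equalled the count divided by exon length and library total (largest relative difference 2.23e-13). The processing notes of the submitters name Trimmomatic 0.36, featureCounts, Subread 1.5.1, edgeR 3.12.1 and GRCh38; the aligner, the annotation release and the strand setting are not given in the sources used here. In the counts 6422 values equal 1 and 14976 equal 2, so a read pair may have been counted as 2 reads.

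Counts were fitted in R 4.3.3 with edgeR 4.0.16 (TMM, low-count filter with a minimum count of 10, quasi-likelihood test, no covariates), with Benjamini-Hochberg adjustment over 18183 genes. The biological coefficient of variation was 0.0788. Standard errors were derived from the F statistic, and 95% intervals from the moderated degrees of freedom. CPM use TMM-scaled library sizes. The script was tested on simulated data. Depth was 33268860 to 40928176 counts per library. DESeq2 1.42.0 and limma 3.58.1 on log2(RPKM + 1) and log2(RPKM + 0.1) were alternatives. Others were different scalings, no filter, the replicate block and the omission of each library and of the mitochondrial genome. The calls of the main fit were also counted among the 39 members that share no exon bases. Exon overlap was read from the positions in the table and from GENCODE 29, whose gene of the same symbol overlapped 78 of 78 members, 77 with the same start and end. Promoters were those of RefSeq.

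The members, the lists and the tests were chosen with earlier results of these data known. The members named were the 10 largest falls and 5 largest rises among those called, the 3 highest and 3 lowest by RPKM, the MRPS18 genes, and the called gene with the smallest p in each direction in each structural group and related list. Further steps used Python 3.11.15, numpy 2.4.6, pandas 2.3.3, scipy 1.17.1 and matplotlib 3.10.9. A further marker of the cell line is not reported here.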

Additional observations from a re-analysis of the deposited data

How the results depend on the processing

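The 13 members that fell became 20 with upper-quartile factors, 21 with library sizes alone and 0 at the fold-change limits of the study, and between 6 and 13 with 1 library left out. The 5 that rose became 1 with limma on log2(RPKM + 1), 1 on log2(RPKM + 0.1), 3 among the 39 members sharing no exon bases and 0 at the limits of the study, and between 4 and 9 with 1 library left out. The median of -0.059 moved to -0.10 with upper-quartile factors, -0.10 with library sizes alone, and -0.080 and -0.091 with limma after adding 1 and 0.1. Of the 99 related genes tested, 37 were called, beside 16.5% lower and 17.3% higher over all genes tested. Without the genes of the mitochondrial genome 19 of 84 were called, beside 15.6% lower and 17.9% higher. With limma on log2(RPKM + 1) and log2(RPKM + 0.1), 17 and 18 of the 99 were called. Over all 33451 genes, 7.25% and 7.30% fell in these fits and 5.97% and 5.93% rose. The cause of the other shifts was not tested. MRPS34 turned from 0.02 to -0.017 with upper-quartile factors, -0.019 with library sizes alone and -0.019 in both limma fits. With 1 library left out, MRPS24 ranged from -0.28 to 0.023, turning without EG replicate 1, and MRPL50 ranged from -0.24 to 0.015, turning without CG replicate 1 and, at 0.0091, without CG replicate 2. Replicate numbers did not pair the samples, with correlations of deviations of -0.072, -0.012 and -0.046. With the replicate number as a block, 13 members fell and 6 rose, beside 15.9% and 16.8% of all genes tested. Of the 18 called members, 6 kept the call in all 15 alternative fits. With 3 libraries in each group, changes smaller than the intervals given were not detectable.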
